A study of Mus musculus with 4 samples.

Results

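The regions described here carried a peak of histone H3 trimethylated on lysine 4 (H3K4me3) in both peak lists of Wbp7+/- macrophages, had no peak in either list of Wbp7-/- macrophages, and reached a peak score of 500 or above. Peaks of the 4 lists were joined wherever they overlapped by at least 1 bp, and 623 of the 18786 joined regions met this rule, 3.32% of all regions. They made up 4.91% of the 12689 regions that reached 500 in any list, and 5.12% of the 12168 that were called in both Wbp7+/- lists and reached 500 there. The reverse rule, a peak in both Wbp7-/- lists at 500 or above and none in Wbp7+/- cells, was met by 54 of 10978 regions, or 0.492%. The regions were chosen by these peak calls and scores, so the counts and the scores below are a description and test nothing.

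H3K4me3 marks the nucleosomes around active and poised promoters. Wbp7, now named Kmt2b, is a methyltransferase of the MLL family that works in a complex with shared core subunits and binds promoters rich in CpG. Several related enzymes lay down the same mark, and loss of Wbp7 in other cell types is known to remove H3K4me3 from only some promoters.

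The mark was mapped by chromatin immunoprecipitation and sequencing in primary macrophages grown from bone marrow, taken on day 7 of differentiation, from mice of a mixed background of C57BL/6 (94%) and 129/Ola (6%). The 4 groups were untreated Wbp7+/- cells, Wbp7+/- cells given lipopolysaccharide (LPS, a part of the outer membrane of bacteria to which macrophages respond) at 10 ug/ml for 4 h, untreated Wbp7-/- cells, and Wbp7-/- cells given the same LPS treatment. The reference cells thus lack 1 copy of Wbp7 themselves, and wild-type cells are not analysed here. The labels do not give the design of the Wbp7 alleles or the number of mice behind a library. Each group held 1 library, and without replicates no p-value was computed. The first line of the peak list of LPS-treated Wbp7+/- cells names 24 h, against 4 h in the label, and which of these holds for that library is not known.

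The lists held 17316 peaks in untreated and 17313 in LPS-treated Wbp7+/- cells, and 14599 and 15086 in Wbp7-/- cells. The numbers of reads behind the lists are unknown. A missing peak means that the caller's threshold was not passed, and the effect of Wbp7 and of library depth on a missing peak cannot be told apart. Scores stop at a ceiling of 3100, above which a few peaks lie, and 54.8 to 62.0% of each list stood at or above it. Positions are in the mm9 build, counted from 1. The gene table used here is of another build, so genes, gene starts, macrophage markers and sequences at these positions were not analysed here.

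The 623 regions lay in the weaker part of the Wbp7+/- lists. Their scores ran from 64.93 to 3136.52 in untreated cells, with a median of 887.41, and from 177.88 to 3230.05 after LPS, with a median of 1014.94. By rank among all peaks of the list, the median region stood at percentile 34.06 untreated and 35.75 after LPS. In both lists 492 regions scored 500 or above, 31 did so in untreated cells only and 100 after LPS only. The ceiling was reached in both lists by 55 regions, in the untreated list only by 5 and in the LPS list only by 22. More regions therefore passed either mark after LPS alone than without LPS alone.

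**Figure D1:**
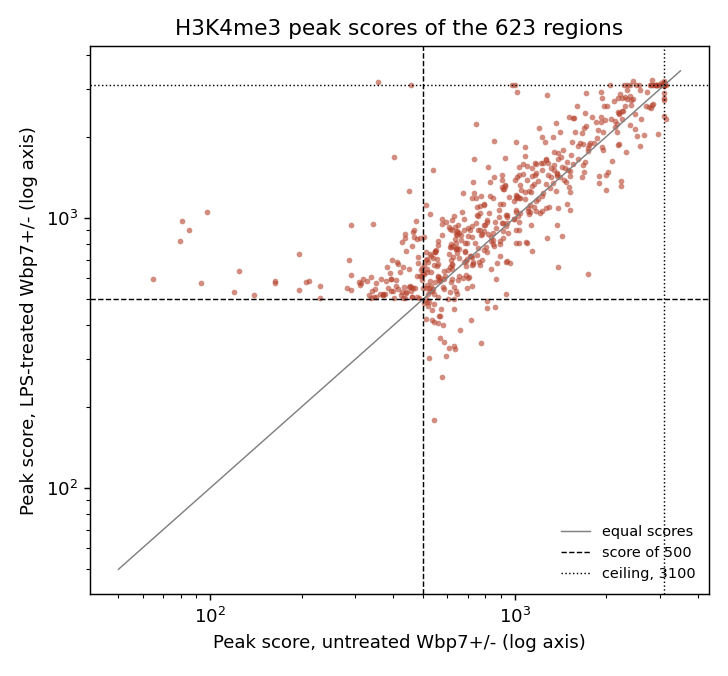
Each point is 1 of the 623 regions, with its highest peak score in untreated (x axis) and LPS-treated (y axis) Wbp7+/- cells, both on log axes. The empty lower left corner is set by the rule, 100 points lie above 500 after LPS only and 31 in untreated cells only.

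Just inside the score of 500, the region at chr7:91753807-91755022 scored 503.02 untreated and 482.49 after LPS. The next lay at chr6:32460910-32462205, with 483.71 and 504.15, and at chr8:108042231-108043436, with 336.33 and 505.18. Just outside were a region at chr12:85349880-85350977, with 496.99 and 411.96, one at chr3:51849677-51851449, with 496.32 and 283.86, and one at chr5:108116659-108117840, with 492.85 and 408.74. The threshold cuts a continuous range of scores.

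Most regions were single narrow peaks. In 608 of the 623, each Wbp7+/- list had exactly 1 peak, and in all 623 the untreated and the LPS peak overlapped each other. The joined regions ran from 544 to 4902 bp, with 91 under 1 kb, 473 from 1 to under 2 kb and 59 of 2 kb or more. Summed peak width had a median of 1192 bp (quartiles 982 and 1488) in untreated and 1256 bp (1052.5 and 1552) in LPS-treated cells. All 623 together covered 803.5 kb untreated and 847.4 kb after LPS, 2.33% and 2.43% of the length covered by each list.

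Wider peaks tend to score higher, so widths were set beside those of regions with a peak in all 4 lists within the same class of highest Wbp7+/- score. From 500 to under 1000, the 294 regions had an untreated median of 1028.5 bp against 1214.5 bp in 542 regions of all 4 lists. From 1000 to under 2000 the medians were 1211 bp (174 regions) and 1401 bp (618 regions), and from 2000 to under 3100 they were 1439 bp (73) and 1523 bp (490). At the ceiling they were 1772 bp (82) and 2496 bp (9640). Scores of most peaks stop at the ceiling, so this class is not matched on score. The medians of the Wbp7+/--only regions were lower in each of the 4 classes, and the quartile ranges overlapped in each. After LPS the medians were also lower in all 4 classes, with the smallest gap, 1127.5 against 1138.5 bp, in the lowest class. The rule itself favours this order, because a wider region has more room for an overlap with a Wbp7-/- peak. In regions of all 4 lists, a Wbp7-/- peak can also join neighbouring Wbp7+/- peaks, whose widths are then summed. The part of the rule in the lower medians was not tested.

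**Figure D2:**
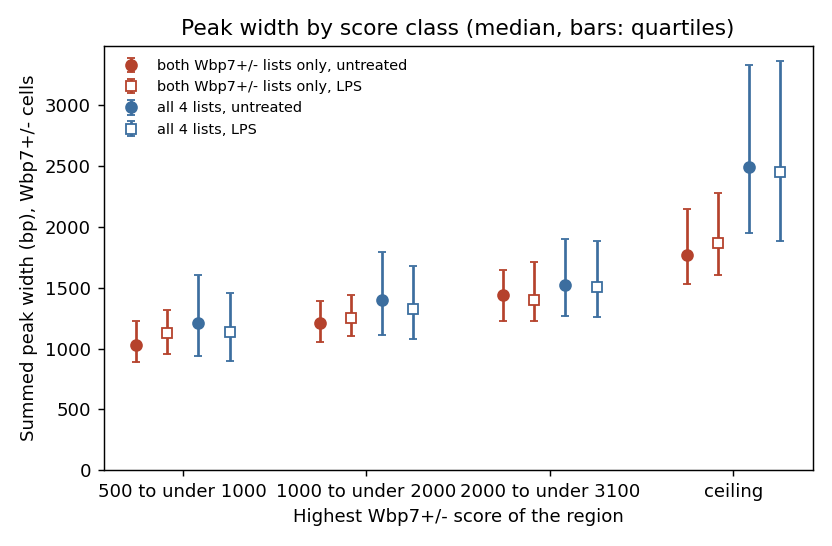
Median summed peak width in bp (y axis) by class of highest Wbp7+/- score (x axis), for regions found in both Wbp7+/- lists only and in all 4 lists, in untreated (filled circles) and LPS-treated (open squares) Wbp7+/- cells, with bars from the lower to the upper quartile. At the ceiling the untreated medians were 1772 and 2496 bp. That class is not matched on score, and the rule itself favours lower widths.

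Read the other way, the share of strong Wbp7+/- regions without any Wbp7-/- peak differed with width as well as score. In the class from 500 to under 1000, 106 of 302 regions with a mean width under 1 kb had none (35.1%, 95% Wilson interval 29.93 to 40.64). At 2 kb or wider, 1 of 60 had none (1.667%, 0.2948 to 8.855). From 1000 to under 2000 the shares were 21.8% (15.63 to 29.56) of 133 regions under 1 kb, 26.4% (22.45 to 30.77) of 428 of 1000 to under 1500 bp and 5.882% (2.724 to 12.24) of 102 regions of 2 kb or more. From 2000 to under 3100 they were 5.556% (1.537 to 18.14) of 36, 15.33% (11.46 to 20.2) of 261 and 7.08% (3.631 to 13.35) of 113, and these intervals overlapped. In both higher score classes the share was thus highest at 1000 to under 1500 bp and did not fall steadily with width. All intervals here cover counting error over regions only, and regions of 1 library are not replicates. As stated above, a wider region has more room for a 1 bp overlap with a Wbp7-/- peak, so the rule also shapes these shares.

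By score alone, the share without a Wbp7-/- peak was 31.51% of 933 regions from 500 to under 1000, 20.19% of 862 from 1000 to under 2000, 12.27% of 595 from 2000 to under 3100 and 0.8386% of 9778 at the ceiling. Regions missing in 1 Wbp7-/- list only were fewer. At 500 or above, 188 had a peak in every list but that of untreated Wbp7-/- cells and 67 in every list but that of LPS-treated Wbp7-/- cells. Absence from both Wbp7-/- lists was thus the more frequent form of absence among strong Wbp7+/- regions.

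The leading regions, those with the highest lower score of the Wbp7+/- lists ordered by width at the ceiling, lay in unlike surroundings. The region at chr17:23685679-23688670 was 1.081 kb from a region with peaks in all 4 lists. The region at chr19:12084362-12088216 was 2.845 kb from one. At the other end, the region at chr4:28739474-28743069 had no peak of any Wbp7-/- list within 2465 kb and no other region of the set within 12710 kb. Its peaks covered 3329 bp untreated and 3596 bp after LPS, both at the ceiling. The regions at chr12:53703288-53706606 and at chr8:83401813-83405176 were 96.59 and 67.08 kb from the nearest Wbp7-/- peak. The widest, at chr11:48666121-48671022, consisted of 2 peaks in each Wbp7+/- list and lay 8.219 kb from a region of all 4 lists.

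The regions closest to a peak that stayed were separated from it by gaps shorter than their own width. The region at chr11:68875807-68878184 lay 0.27 kb from a region of all 4 lists, with a score of 3100 untreated and 2379.08 after LPS. The region at chr2:30325029-30326495 lay 0.626 kb away, with 1386.79 and 660.17. The region at chr7:30690575-30692174 lay 0.785 kb away, with 3100 and 2777.1. All of these had their lower score after LPS. Only 6 of the 623 regions lay within 1 kb of a Wbp7-/- peak.

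The most distant regions were at chrX:120216655-120217811, 6066 kb from the nearest region of all 4 lists, with scores of 917.05 and 841.65, and at chr14:84842320-84844009, 2696 kb away, with 561.46 and 609.95. The region on chromosome 4 described above was the third. For the whole set, the median distance to a region of all 4 lists was 46.31 kb (quartiles 17.6 and 104.2), and 164 regions lay over 100 kb from one. Within 5 kb lay 48 of the 623 (7.705%, 5.86 to 10.07), against 16.2% of all 15039 regions in both Wbp7+/- lists.

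Nearness differed from that of the sets most like this one. Among the 1650 regions of all 4 lists with a highest Wbp7+/- score of 500 to under the ceiling, 370 lay within 5 kb of another region of all 4 lists (22.42%, 20.48 to 24.5), and the median distance was 19.31 kb. Among the 1424 regions of both Wbp7+/- lists only that scored under 500, it was 202 (14.19%, 12.47 to 16.09), with a median of 29.5 kb. Both shares lay above the interval of the 623 regions. The 623 include 82 ceiling regions, and with the ceiling included the share of regions of all 4 lists was 15.2% (14.55 to 15.87) of 11290. By class, the shares were 8.503% (5.826 to 12.25) against 21.77% (18.5 to 25.44) from 500 to under 1000, 7.471% (4.418 to 12.36) against 22.98% (19.83 to 26.45) from 1000 to under 2000, and 2.74% (0.7546 to 9.45) against 22.45% (18.98 to 26.35) from 2000 to under 3100. At the ceiling they were 9.756% (5.027 to 18.09) against 13.96% (13.29 to 14.67), and these intervals overlapped. Of the 188 strong regions missing in untreated Wbp7-/- cells only, 16.49% (11.87 to 22.45) lay within 5 kb, and of the 67 missing in LPS-treated Wbp7-/- cells only, 10.45% (5.154 to 20.03), an interval that overlaps. Neighbouring calls can be parts of 1 broad domain. With peaks joined within 1 kb the share was 6.992% (5.232 to 9.286) of 615 regions, ceiling regions included. It was 15.97% (14.24 to 17.87) of 1559 regions of all 4 lists that scored 500 to under the ceiling.

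The same pattern appeared when strong Wbp7+/- regions below the ceiling were ordered by distance. The share with no Wbp7-/- peak was 9.091% (6.747 to 12.14) of 440 regions within 5 kb of another region of all 4 lists, 16.93% (14.22 to 20.03) of 638 at over 5 to 20 kb and 24.29% (21.02 to 27.89) of 597 at over 20 to 50 kb. It was 32.02% (27.39 to 37.04) of 356 at over 50 to 100 kb and 37.33% (32.48 to 42.44) of 359 beyond 100 kb. Within the score class from 500 to under 1000 it went from 16.03% to 48.5%. From 1000 to under 3100 it went from 5.282% to 28.71% at over 50 to 100 kb, and 27.6% beyond. Isolated strong regions were thus without a Wbp7-/- peak more often than those near a retained region, in both score classes. The intervals of the nearest and the farthest class did not overlap, but they cover counting error over regions only. Parts of 1 retained domain count as retained and near at once. Within 1 kb of another region of all 4 lists lay 129 of the 1650 retained regions, against 6 of the 623. Joining peaks within 1 kb was not applied to this order, so the part of such domains in it was not tested.

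**Figure D3:**
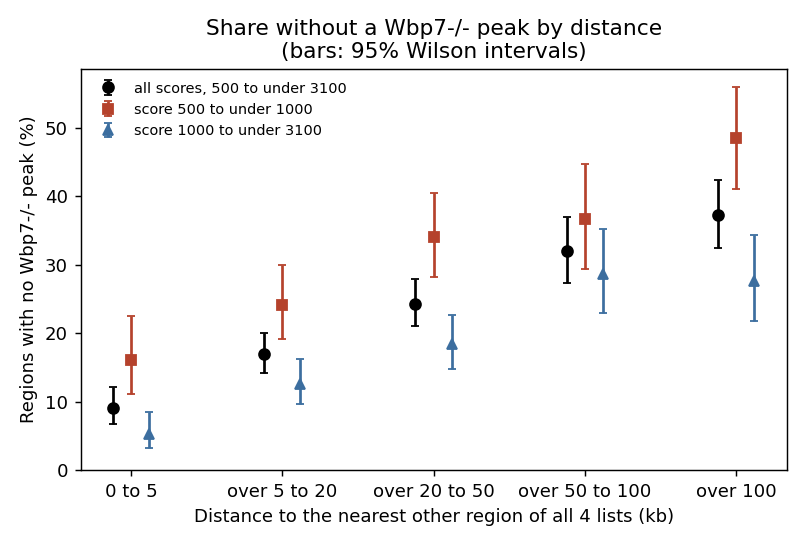
Percent of strong Wbp7+/- regions without any Wbp7-/- peak (y axis) by distance in kb to the nearest other region of all 4 lists (x axis), for highest Wbp7+/- scores of 500 to under 3100 and split at 1000, with 95% Wilson intervals. Over all these scores the share goes from 9.091% within 5 kb to 37.33% beyond 100 kb.

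Most of the regions lay far from one another, with a median of 776.5 kb to the nearest other one. Within 50 kb of another one lay 74 of the 623, and within 10 kb 28. The nearest region of any kind was itself one of the 623 for 41 of them (6.581%, 4.888 to 8.806), against 46 of the 1650 sub-ceiling regions of all 4 lists (2.788%, 2.097 to 3.698). Counting Wbp7+/--only regions of any score, the nearest region was of that kind for 120 of 623 (19.26%, 16.36 to 22.54) and for 149 of 1650 (9.03%, 7.741 to 10.51), beside 10.9% of all regions. For 392 of the 623 (62.92%, 59.06 to 66.62) the nearest region had a peak in all 4 lists, near the 67.33% (65.03 to 69.55) of the 1650. Runs of neighbours no more than 100 kb apart held 108 of the 623 regions in 46 runs, of which 37 were pairs and 9 held 3 or more. Runs were not counted for any other set, so whether 108 is many was not tested.

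The closest pair, chr18:14128578-14130344 and chr18:14130575-14131512, had a gap of 230 bp. They scored 435.96 and 429.28 untreated and 844.85 and 655.55 after LPS, so both passed 500 after LPS only. The other 2 closest pairs, 735 and 1145 bp apart, were on chromosome 11 and belong to the largest run.

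That run, at chr11:68850135-68940139, held 6 of the regions together with 5 regions of all 4 lists and no weak Wbp7+/--only region. From the low end, chr11:68850135-68851419 scored 546.56 untreated and 749.38 after LPS, and its neighbour chr11:68852565-68855418 was at 3100 in both lists. The third, chr11:68875807-68878184, is the one beside a retained region described above. The 3 at the high end, chr11:68930773-68932513, chr11:68934446-68937987 and chr11:68938723-68940139, scored 3100, 3100 and 2252.26 untreated and 3100, 3100 and 2329.86 after LPS. Each of the 5 interleaved regions of all 4 lists was at 3100 in both Wbp7+/- lists. The peaks of the widest of them covered 6189 and 6119 bp in Wbp7+/- cells against 5381 and 4394 bp in Wbp7-/- cells, whereas 3 of the other 4 were wider in untreated Wbp7-/- than in untreated Wbp7+/- cells. Missing regions, 3 of them at the ceiling in both Wbp7+/- lists, were therefore interspersed with retained regions of ceiling score over less than 100 kb.

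**Figure D4:**
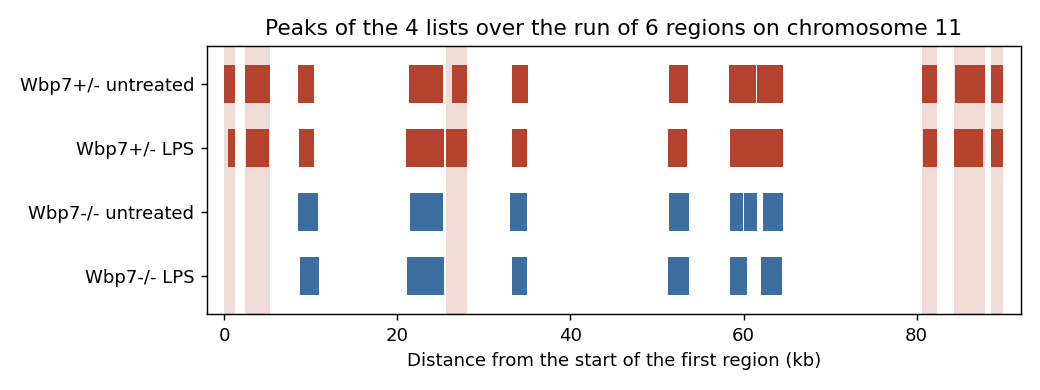
Peaks of the 4 lists (rows) over the largest run, by distance in kb from the start of its first region (x axis), with Wbp7+/- lists in red and Wbp7-/- lists in blue and the 6 regions shaded. The shaded columns hold no Wbp7-/- peak, and the 5 regions between them have a peak in every row.

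The other runs of 3 or more lay on chromosomes 1, 2, 6, 7, 11 and 13. At chr13:21250623-21292956, 3 regions were all at the ceiling in both Wbp7+/- lists, with 1 region of all 4 lists among them. Its first pair, chr13:21250623-21253836 and chr13:21258566-21262625, stood 4.729 kb apart and 16.88 and 8.093 kb from a region of all 4 lists, and the wider of the pair was called as 1 peak of 4056 bp untreated and as 3 peaks of 3394 bp in sum after LPS. A second run on the same chromosome, chr13:23528926-23611493, held 4 regions with scores of at least 1098.89 untreated and 1115.3 after LPS, and 2 regions of all 4 lists. The 3 regions at chr6:128709972-128750209 had no other region among them. The runs at chr1:72282658-72354527 and chr1:172963174-173042613 held 4 regions each, with 1 and 2 regions of all 4 lists. In 8 of the 9 runs, at least 1 region of all 4 lists lay between the missing ones, the run on chromosome 6 being the exception.

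Every one of the 20 chromosomes in the lists had such regions. The share of strong Wbp7+/- regions that had no Wbp7-/- peak ran from 3.326% of 872 on chromosome 7 (2.325 to 4.735) to 7.226% of 429 on chromosome 12 (5.137 to 10.07). Chromosomes 6, with 7.191% of 598 (5.382 to 9.546), and 3, with 7.045% of 582 (5.235 to 9.418), were close to the highest. Chromosome 5, with 3.544% of 790, was close to the lowest. On the X chromosome 20 of 364 met the rule (5.495%, 3.585 to 8.334), near the 5.12% of all chromosomes. Chromosome 11 had the most regions in number, 55 of 1037 (5.304%).

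The regions are next described by how their peaks differed between the LPS-treated and untreated Wbp7+/- lists. The rule used the higher of the same 2 scores, and 100 regions passed it after LPS only against 31 in untreated cells only. These were not set apart in the width and score shares below, which are a description and test nothing. The positions and widths of the 623 regions stayed close between the lists. Below the ceiling, the centre of a region's peaks moved by a median of 46.5 bp between the lists, against 62.5 bp in the 1650 regions of all 4 lists with scores in the same range, of which fewer were in its lowest class (542 of 1650, against 294 of 541). The ratio of LPS-treated to untreated width had a median of 1.03 (quartiles 0.9573 and 1.128). Peaks 1.5 times or more wider after LPS were seen at 23 of the 623 regions (3.69%), beside 4.33% of all regions in both Wbp7+/- lists. Peaks narrower by the same factor were seen at 1 region (0.161%), beside 2.34%. The share that widened was near the background, and the share that narrowed was below it. Width follows score, so the rule shapes both shares. Of the 492 regions at 500 or above in both lists, 7 widened and 1 narrowed. A low share that narrowed was not particular to this set. It was 1.06% of the 188 strong regions missing in untreated Wbp7-/- cells only, and 0.778% of ceiling regions of all 4 lists. It was higher in the 1650 regions of all 4 lists (4.85%) and in the weak Wbp7+/--only regions (3.44%).

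For comparison, of the 188 strong regions missing in untreated Wbp7-/- cells only, 66 were wider after LPS by the same factor (35.1%), with a median ratio of 1.254. These were selected for a peak that Wbp7-/- cells had with LPS only, which the 623 regions by rule were not.

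The 5 regions with the largest ratios all had a weak untreated peak. The region at chr5:141716793-141720244 had an untreated peak of 653 bp with a score of 356.89 and an LPS peak of 3452 bp with a score of 3174.74, a ratio of 5.286. The region at chr7:117770979-117774577 went from 899 to 3599 bp and from a score of 80.61 to 976.83. The region at chr17:13132846-13134058 went from 396 to 1213 bp and from 79.81 to 819.74. Next were the regions at chr3:68673100-68674527, from 554 to 1428 bp, and at chr18:14128578-14130344, from 759 to 1767 bp. None of the 5 had a score of 500 in untreated cells, so each entered the set through its LPS peak. Only 7 of the 23 widened regions scored 500 or above in both lists.

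The smallest ratios were nearer to 1. The region at chr11:68850135-68851419, the first of the largest run, went from 1285 to 843 bp (ratio 0.656) while its score went from 546.56 to 749.38. The regions at chr9:67481098-67482401, at chr7:65653505-65655244 and at chr8:72682030-72682996 had ratios of 0.7191, 0.7327 and 0.7549, also with a higher score after LPS. The region at chr3:37247105-37248427, with a ratio of 0.7601, went from a score of 772.44 to 342.75. Only the first of these 5 was narrower by a factor of 1.5. A higher score after LPS in 4 of the 5 is near the share among all the sub-ceiling regions of the set, 71.2%.

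Of the 22 regions at the ceiling after LPS only, 18 scored at least 2049.07 in untreated cells. The lowest untreated scores were those of the region on chromosome 5 above, of the region at chr12:80231371-80233317 (456.78), of that at chr11:120581847-120584388 (979.41) and of that at chr3:121128705-121131518 (999.03). The last of these went from 1374 to 2814 bp. The highest untreated score among the 22 was 3056.38. The 5 at the ceiling in untreated cells only scored from 2317.97 to 2901.49 after LPS.

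Scores were more often higher after LPS, whereas those of retained regions in the same score range were more often lower. Of the 541 regions below the ceiling in both lists, 385 had the higher score after LPS and 156 the lower, so 71.2% were higher, beside 43.5% of all 5261 sub-ceiling regions in both Wbp7+/- lists. The median ratio of LPS-treated to untreated score was 1.161 (quartiles 0.9674 and 1.4). In the 1650 regions of all 4 lists with scores in the same range, 492 were higher (29.8%), with a median ratio of 0.8176 (0.6008 and 1.051). Scores grow with read depth, which is unknown, and its part in these differences was not tested. As ranks within each list, the median shift with LPS was 1.849 percentile points for the 541 regions and -1.019 points for the 1650. At or above the ceiling stood 56.0% of the untreated and 54.8% of the LPS list. The smaller share by itself moves ranks just below the ceiling up in the LPS list, so the ranks do not remove an effect of depth.

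The split was present in each score class. These classes are cut on the higher of the same 2 scores, and regions that passed 500 in 1 list only were not set apart. From 500 to under 1000, 71.4% of the 294 regions were higher after LPS, against 27.5% of 542 regions of all 4 lists. From 1000 to under 2000 it was 70.7% against 31.1%, and from 2000 to under 3100 it was 71.2% against 30.8%. Under 1 kb of width, 67.15% (58.91 to 74.46) of 137 regions were higher, against 25.69% (20.99 to 31.04) of 288. At 1500 to under 2000 bp it was 81.25% (71.34 to 88.29) of 80, against 30.33% (26.02 to 35.01) of 399. At 2 kb or more, with 15 regions, it was 60.0% (35.75 to 80.18) against 31.58% (26.1 to 37.62) of 247, and the intervals overlapped. Regions over 50 kb from a region of all 4 lists were higher after LPS in 80.24% (74.84 to 84.72) of 248 cases and those within 50 kb in 63.48% (57.83 to 68.79) of 293. Among regions of all 4 lists the corresponding shares were 37.86% (33.31 to 42.64) and 27.14% (24.74 to 29.69).

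Large shifts were few. Scores at least doubled with LPS at 32 of the 541 regions (5.91%) and fell to a ratio of 0.5 or less at 5 (0.924%). In the regions of all 4 lists these shares were 4.3% and 16.8%. In the 1424 weak Wbp7+/--only regions the shares were 8.71% and 6.18%, with a median ratio of 1.043, and 53.3% were higher after LPS. Below the ceiling, the strong regions missing in untreated Wbp7-/- cells only were higher after LPS in 109 of 138 cases (79.0%), with a median ratio of 1.792, which is further in the same direction than in the 541. Those missing in LPS-treated Wbp7-/- cells only had a median ratio of 0.8202, with 18 of 61 higher (29.5%). These 2 sets were selected on a difference between the Wbp7-/- lists with and without LPS. Each of these comparisons rests on 1 library per treatment, and the part that LPS, its uncertain time or a difference between the libraries had in the shift cannot be told apart.

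**Figure D5:**
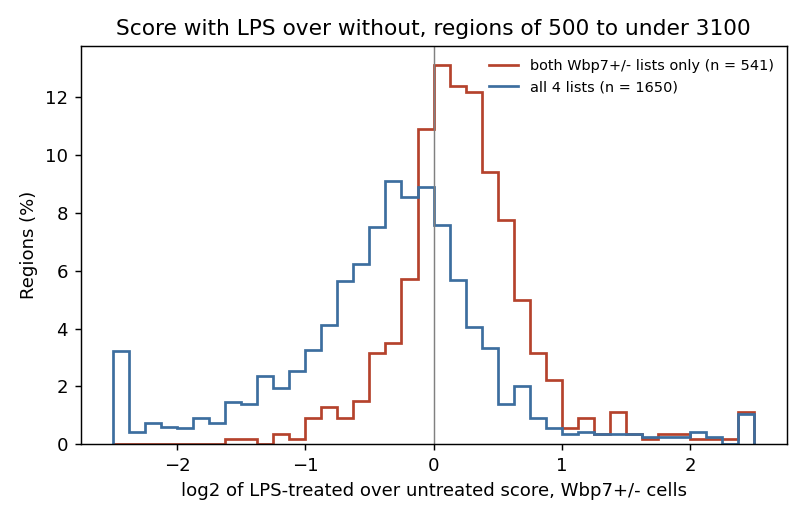
Percent of regions (y axis) by the log2 ratio of LPS-treated to untreated peak score in Wbp7+/- cells (x axis), for 541 regions of both Wbp7+/- lists only and 1650 regions of all 4 lists, all with a highest Wbp7+/- score of 500 to under 3100, with the outermost bins holding all ratios beyond them. Of the first set 71.2% and of the second 29.8% lie above 0.

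Across the 541 sub-ceiling regions, the order of scores was much alike in the 2 lists, with a Spearman correlation of 0.8284. The correlation of untreated score with untreated width was 0.4368 over the same regions, and that of untreated with LPS width over all 623 was 0.8358. These describe calls that share an antibody and a pipeline, and regions are not independent replicates.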

How the data were processed

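H3K4me3 peak lists of 4 mouse macrophage libraries were used, 1 per group, and groups came from the sample titles. Alignment was with Bowtie to mm9, per the submitters' processing notes. Per the file headers, MACS called the peaks of each library, and the word input appears there too. For versions, thresholds and read numbers the entry is the same: not given in the sources used here. The score of each peak is the authors' deposited value and was used only to rank and class regions. In MACS such a score usually rises as the p-value of a peak falls. Peaks at 3100 or above were treated as 1 class, the ceiling.

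Peaks were joined with bedtools 2.31.1. A region's score in a list is the highest of its peaks, its width there the sum of their widths, and distances are gaps between region edges. Shares have 95% Wilson intervals (scipy 1.17.1). Python 3.11.15, pandas 2.3.3, numpy 2.4.6 and matplotlib 3.10.9 were used. The joining of peaks into classes was checked on slightly shifted copies of the Wbp7+/- lists with 200 whole regions removed. That checks the code only, because missing peaks from depth or from the caller's threshold were not simulated.

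With 1 library per group, no test was run. The regions named are the 10 with the highest lower score, the 5 largest and 5 smallest width ratios, the 3 closest pairs, the 3 nearest to and farthest from a region of all 4 lists, and the 3 on each side of the score of 500. Runs and ceiling regions of 1 list were named after their values were seen. The set, its comparison sets and all classes were chosen with earlier results of these data known. Planned shares at gene starts, CpG content, and lists of GPI anchor, LPS-response, macrophage and other cell type genes were not run, because no genome or annotation of mm9 was used.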

Additional observations from a re-analysis of the deposited data

How the results depend on the processing

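No paired analysis was possible because each group held 1 library. Among 33 alternatives, 19 gave a count within a factor of 1.5 of the reported one or a value inside its interval. The number of regions was 615 with peaks joined within 1 kb, 617 and 566 with a Wbp7-/- peak counted within 1 and 5 kb, 924 at a score of 300, 492 with 500 in both lists, 807 with peaks under 100 dropped and 631 with lists of 14599 peaks each. It was 329 at a score of 1000, by construction. Alternatives added after seeing the data gave 528 without the LPS-treated Wbp7+/- list, 523 of the 623 among them, 816 without the LPS-treated Wbp7-/- list and 691 without the untreated one. The share near a region of all 4 lists was 0.9631% within 1 kb, 14.61% within 10 kb and 52.49% within 50 kb. Widened regions numbered 72 at a ratio of 5/4, 9 at a ratio of 2 and 7 with 500 or above in both lists, the last added after seeing the data. Narrowed regions numbered 10 at 5/4, 0 at 2 and 6 with peaks under 100 dropped. Median widths were 1253 and 1301.5 bp (untreated and LPS) with 500 or above in both lists, and 1146 and 1197 bp below the ceiling. The alternatives for gene starts and CpG content were not run. Depth is unknown and limits every statement on a missing peak.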
